A study of Mus musculus with 9 samples.

Results

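Genes whose expression at 10 pM estradiol (E2) lay above or below the levels at both vehicle and 100 pM E2 were examined in urogenital sinus mesenchymal cells of the fetal mouse prostate. All 9 arrays of the series entered the comparison, 3 at 10 pM E2, 3 with vehicle and 3 at 100 pM E2, and 19938 genes were tested. For each gene the contrast was the mean of the 10 pM arrays minus the average of the vehicle and 100 pM group means, on the log2 scale, so a value of 1 is a doubling. A gene was given an inverted U shape where its 10 pM mean was above both other means, and a U shape where it was below both. By that rule 6422 genes (32.2% of those tested) had an inverted U, 5826 (29.2%) had a U, and the rest had a 10 pM mean between the other means, so the shape alone says little about a gene.

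The cells came from male CD-1 fetuses on gestation day 17 and were used at first passage. They were kept for 3 days in medium with charcoal-stripped serum and 690 pM dihydrotestosterone, then held for 4 days with ethanol vehicle, 10 pM E2 or 100 pM E2, with the androgen present in every group, vehicle included. Nothing in the labels says that the replicates of a group were separate cell preparations, so the p-values reflect how far these samples spread, and that spread may be purely technical. In such bulk RNA, fewer cells of a type and less RNA per cell cannot be told apart.

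Estradiol acts mainly through estrogen receptors, which bind DNA or other transcription factors, and hormone responses that turn back on themselves with dose are called non-monotonic. The groups of genes described here belong to programs with well-known regulators. Acute-phase proteins and chemokines are induced through NF-kB and C/EBP factors, while glycolysis enzymes, glucose transporters and prolyl hydroxylases are classic targets of the hypoxia-inducible factors. In the fetal prostate, the mesenchyme signals to the epithelium and directs the growth of its buds.

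Array medians lay between 6.17 and 6.20, and arrays correlated across genes with r from 0.997 to 0.998 within groups and 0.996 to 0.998 between groups. In 72.7% of genes at least 2 arrays held exactly the same value. The 9 markers of mesenchyme, the labelled cell type, Vim among them, were all between the 90.6th and 100th percentile of genes by mean level. The 9 epithelial markers were between the 21.6th and 66.4th percentile and the 7 endothelial markers between the 25.8th and 66.7th. The 9 macrophage markers were between the 17.4th and 50.4th percentile. Their mean level per array was 5.85 to 6.02 with vehicle, 5.75 to 5.93 at 10 pM and 5.60 to 5.66 at 100 pM, and its part in the results below was not tested.

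In the limma fit, 1 gene, Saa3, was called with an inverted U at an adjusted p below 0.05 (0.00502% of the genes tested), and no gene was called with a U (0%). The next lowest adjusted p was 0.166. At an unadjusted p below 0.05, 1118 genes passed (5.61%, against 996.9 expected if no gene differed), of which 604 had an inverted U (3.03%) and 385 a U (1.93%). At an unadjusted p below 0.01, 274 genes passed (1.37%, against 199.38 expected). A stricter question is whether the 10 pM group differed from vehicle and from 100 pM E2 separately and in the same direction, which is called the both-sides test here. It was passed at an unadjusted p below 0.05 by 158 genes (0.792%), 99 with an inverted U and 59 with a U, and by none after adjustment, where the lowest adjusted p was 0.167. The 10 pM arrays were all above the other 6 arrays in 237 genes (1.19%) and all below them in 123 genes (0.617%).

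In most of the inverted U and U genes with a small contrast p, the step from 10 to 100 pM was the larger one. Of the 169 inverted U genes at an unadjusted p below 0.01, 160 differed between 10 and 100 pM at an unadjusted p below 0.05 and 76 did between vehicle and 10 pM. Their 100 pM mean was below vehicle in 139 (82.2%), against 55.5% of all inverted U genes. In the 51 U genes the same counts were 50 and 28, and the 100 pM mean was above vehicle in 39 (76.5%), against 59.4% of all U genes. Over all genes, none was called between vehicle and 10 pM, 226 were called between vehicle and 100 pM and 166 between 10 and 100 pM. These pairwise comparisons share arrays with each other and with the contrast. In an inverted U gene with 100 pM below vehicle, the step from 10 to 100 pM is larger than the contrast. The same holds in size for a U gene with 100 pM above vehicle. For such genes the small p of that step follows from the selection, so the counts of 160 and 50 are largely built in.

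**Figure D1:**
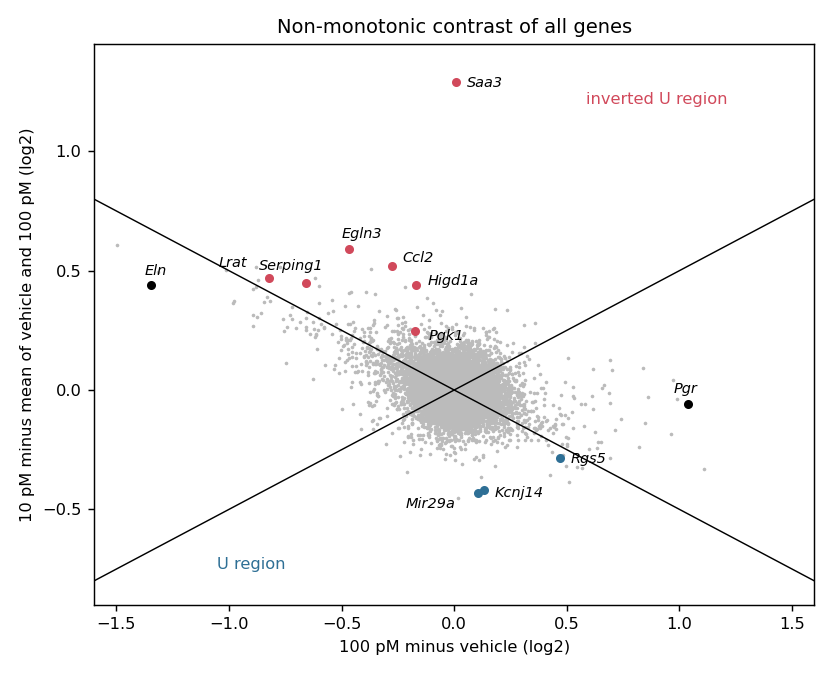
The contrast of every gene (y axis, 10 pM mean minus the average of the vehicle and 100 pM means, log2) is plotted against its difference between 100 pM E2 and vehicle (x axis, log2), with black lines marking where the 10 pM mean equals one of the other means. Red points are named inverted U genes, blue points named U genes and black points named genes between the lines. Saa3 stands alone at a contrast of 1.29 with almost no difference at 100 pM, Lrat and Serping1 lie close to the line, and Pgr and Eln lie outside both regions.

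Saa3 encodes a serum amyloid A protein, a secreted acute-phase protein that many tissues make outside the liver during inflammation. Its log2 level was 5.33, 5.13 and 4.96 on the vehicle arrays, 6.76, 6.31 and 6.24 on the 10 pM arrays and 5.27, 5.01 and 5.16 on the 100 pM arrays. All 10 pM arrays were above all others, by a wide margin, and the vehicle and 100 pM arrays overlapped. The vehicle and 100 pM means of 5.14 and 5.15 were low, and the mean over all 9 arrays was at the 32.4th percentile of genes. The contrast was 1.29 ± 0.12 (SE), a 2.45-fold higher level at 10 pM than the average of the other groups, with an adjusted p of 0.0499. Against vehicle the difference was 1.29 ± 0.14 with an adjusted p of 0.160, and the fall from 10 to 100 pM was called, with an adjusted p of 0.00764. The call of the contrast was lost when any 1 of the 9 arrays was left out, with adjusted p-values from 0.0544 to 0.258 and contrasts from 1.13 to 1.39.

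The Saa genes lie side by side on mouse chromosome 7. The contrast was 0.02 ± 0.10 for Saa4, 0.09 ± 0.13 for Saa2 and -0.23 ± 0.10 for Saa1, and the mean log2 levels of all 3 were below 4, at 3.99, 3.18 and 3.06, within the dimmest 30% of genes, so these probesets say little about the neighbours. The promoter of Saa3 is shown because it is the gene with the clearest non-monotonic values. In the 250 bases before the start that RefSeq's promoter table gives, on the minus strand at chr7:46715677-46715926 of GRCm38.p6, capitals mark a match to the C/EBP motif TTGCNNAA, searched on both strands.
Saa3 promoter: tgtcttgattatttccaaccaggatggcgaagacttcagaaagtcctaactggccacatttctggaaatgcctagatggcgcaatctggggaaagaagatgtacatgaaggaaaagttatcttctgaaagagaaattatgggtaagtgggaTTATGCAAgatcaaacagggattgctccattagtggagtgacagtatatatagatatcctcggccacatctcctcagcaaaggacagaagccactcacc
This motif was found in the same window of 10.8% of 27025 genes with a promoter sequence. RefSeq's whole span of Saa3, chr7:46711998-46719615, reaches beyond this window, so the window is not in front of every annotated transcript. A match describes letters in a window and is no evidence that a factor binds there.

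Acute-phase proteins, chemokines and other NF-kB targets made up a list of 29 genes, of which 25 were measured. Its members were chosen with earlier results of these data known, so its shares are not independent evidence. An inverted U was seen in 19 and a U in 2, against 32.2% and 29.2% of all genes. Of these, 10 inverted U genes and 1 U gene had an unadjusted contrast p below 0.05, against the 5.61% of all genes given above. All 10 pM arrays were above the other 6 in 8 of the 25, against 1.19% of all genes. The both-sides test was passed at an unadjusted p below 0.05 by 7, against 0.792% of all genes, and after adjustment by none. In the contrast itself 1 member, Saa3, was called. The median contrast of the list was 0.11, against 0.002 over all genes. With any 1 array left out, 9 or 10 of the inverted U genes had a p below 0.05 and 6 to 9 passed both sides. The same counts over all 19938 genes were 426 to 696 and 107 to 304. The median difference from vehicle was 0.12 at 10 pM and -0.02 at 100 pM, where members lay on both sides of vehicle. At 100 pM, 6 of the 25 differed from vehicle at an unadjusted p below 0.05, against 10.9% of all genes. Of the 25, 1, Lcn2, was called, against 1.13% of all genes.

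Ccl2, a chemokine that attracts monocytes, was at 6.85, 6.89 and 6.82 with vehicle, 7.15, 7.21 and 7.34 at 10 pM and 6.37, 6.58 and 6.77 at 100 pM. The groups did not overlap, and the contrast was 0.52 ± 0.08 (adjusted p = 0.172). Its fall from 10 to 100 pM was called (adjusted p = 0.0146).
Nfkbia, which encodes the inhibitor that holds NF-kB in the cytoplasm and is itself induced by NF-kB, was at 7.95, 8.04 and 8.11 with vehicle, 8.29, 8.26 and 8.31 at 10 pM and 7.96, 7.90 and 8.07 at 100 pM. The vehicle and 100 pM arrays overlapped and the 10 pM arrays stood above both, with a contrast of 0.28 ± 0.05 (adjusted p = 0.221). Serpina3n, a secreted serine protease inhibitor of the acute phase, was at 8.32, 8.29 and 8.32 with vehicle, 8.53, 8.57 and 8.55 at 10 pM and 8.09, 8.18 and 8.32 at 100 pM. The third 100 pM array was as high as the vehicle arrays and below every 10 pM array, and the contrast was 0.29 ± 0.05 (adjusted p = 0.221). Cxcl16, a chemokine that also exists as a membrane protein, was at 5.58, 5.63 and 5.65 with vehicle, 5.78, 5.80 and 5.78 at 10 pM and 5.61, 5.66 and 5.66 at 100 pM. Its 10 pM arrays were nearly equal and stood 0.17 above vehicle and 0.14 above 100 pM on average, with a contrast of 0.16 ± 0.03 (adjusted p = 0.30).

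Further chemokine and signaling members had smaller contrasts or larger errors. The contrast of Ccl7, a monocyte chemokine, was 0.34 ± 0.08, that of Tnfaip3, which shuts off NF-kB signaling, was 0.12 ± 0.04, and that of Relb, a subunit of the NF-kB family, was 0.11 ± 0.04. Lcn2, an iron-binding acute-phase protein, had a contrast of 0.47 ± 0.08, and its difference lay mainly on the 100 pM side, where it was called lower than vehicle by 0.62 (adjusted p = 0.0148). Vcam1, an adhesion molecule for leukocytes, was higher than vehicle by 0.22 at 10 pM and by 0.12 at 100 pM, so it went back only in part. Not every target followed. Ptgs2, the inducible cyclooxygenase, Csf1, a macrophage growth factor, and Mmp3, a matrix protease, had their highest means at 100 pM, and none of them was called in the contrast. Il6, an inflammatory cytokine, was near the bottom of the scale, with group means of 2.87, 3.01 and 2.97.

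In Nfkbia the NF-kB motif lies close to the start of the gene, and the 54 bases before the start are shown, on the minus strand at chr12:55492648-55492701 of GRCm38.p6, with the match in capitals.
Nfkbia promoter: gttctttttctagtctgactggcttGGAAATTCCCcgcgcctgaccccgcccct
A promoter sequence was at hand for 18 of the 25 measured members, which leaves out Ccl2, Ccl7, Cxcl5, Cxcl16, Hp, Relb and Vcam1. The NF-kB motif was in the 250 bases before a RefSeq start of 9 of these (50%), against 8.23% of all genes. As the list was made of NF-kB targets among others, a high share is partly built in and says nothing about the shape. The median contrast was 0.11 over the 9 genes with it and 0.07 over the 9 without it, and an unadjusted p below 0.05 with an inverted U was seen in 2 and 3 of them.

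**Figure D2:**
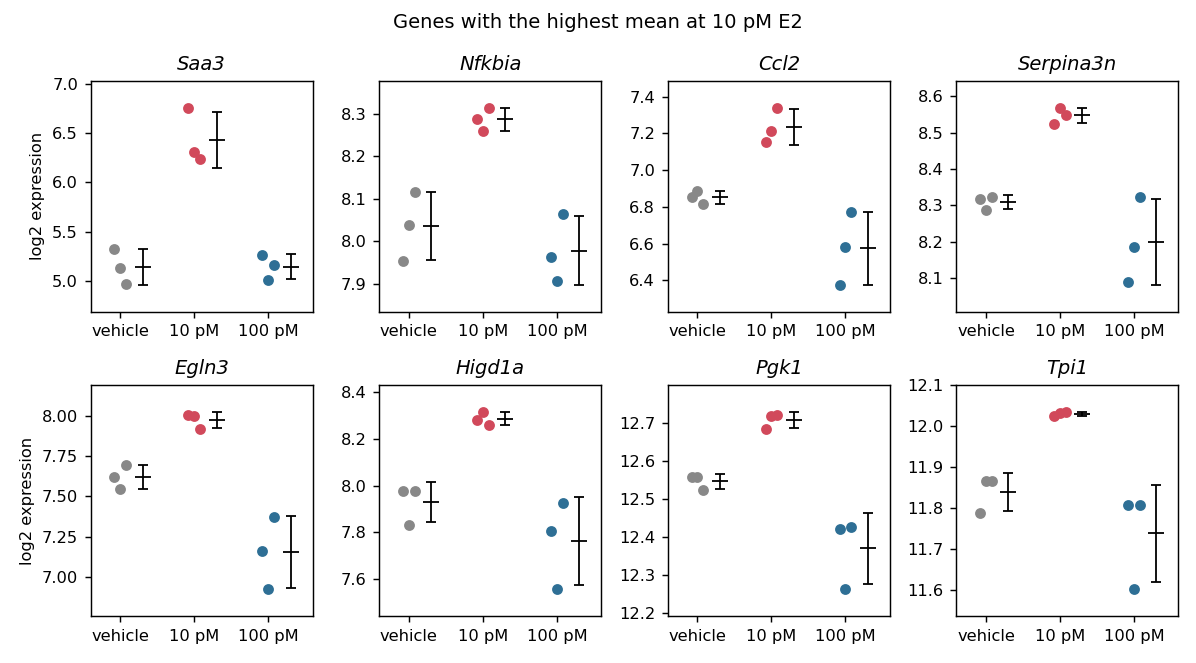
Log2 expression (y axis, scales differ between panels) of 8 inverted U genes is plotted for each array, with the groups on the x axis, dots for single arrays and black bars for the mean ± SD of 3 arrays. In each of the 8 genes all 10 pM arrays are above the other 6. In Saa3 and Nfkbia the 100 pM arrays overlap the vehicle arrays, while in Egln3 and Pgk1 they are below every vehicle array.

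A second form of inverted U had little difference between vehicle and 10 pM and a large fall at 100 pM. Lrat, which stores retinol by turning it into retinyl esters, was at 6.79, 6.61 and 6.88 with vehicle, 6.82, 6.85 and 6.79 at 10 pM and 5.98, 5.85 and 5.98 at 100 pM. Its vehicle and 10 pM arrays overlapped, so the contrast of 0.47 ± 0.06 (adjusted p = 0.166) came from the 100 pM arrays. Between vehicle and 100 pM it fell by 0.82 (adjusted p = 0.00175).
Serping1, the C1 inhibitor of complement, was at 9.38, 9.34 and 9.36, then 9.51, 9.48 and 9.43, then 8.68, 8.55 and 8.86 in the order of dose, with a contrast of 0.45 ± 0.06 (adjusted p = 0.166). Its 10 pM arrays were all above vehicle, by 0.12 on average, which is small beside the fall of 0.66 from vehicle to 100 pM (adjusted p = 0.00359). Pdgfra, the receptor for platelet-derived growth factors that marks many mesenchymal cells, and Igfbp2, a binding protein for insulin-like growth factors, had contrasts of 0.28 ± 0.04 each, and exceeded vehicle at 10 pM by 0.06 and 0.04. Slitrk4, a neuronal-type membrane protein, had a contrast of 0.30 ± 0.04, with 10 pM above vehicle by 0.12. Of the 169 inverted U genes at an unadjusted p below 0.01, 33 were called between vehicle and 100 pM, against 1.13% of all genes. All 33 were lower at 100 pM. A further 54 genes passed an unadjusted p below 0.01 with a 10 pM mean between the others. All 54 were called between vehicle and 100 pM, but the selection itself brings this about. With a 10 pM mean in between, the difference between vehicle and 100 pM has to be larger than the contrast. The 54 include Eln, the elastin gene, at group means of 9.46, 9.22 and 8.11. For such genes the contrast marks a bent but not a turning dose response.

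The hypoxia-response list held 26 genes, targets of the hypoxia-inducible factors and the factor genes Hif1a and Epas1, and 25 were measured. This list too was chosen with earlier results of these data known and is not independent evidence. An inverted U was seen in 21, against 32.2% of all genes, and a U in none. In 13 (52.0%) the unadjusted contrast p was below 0.05, against 5.61% of all genes. In 9 all 10 pM arrays were above the other 6, against 1.19% of all genes. No member was called in the contrast, and 3 passed the both-sides test at an unadjusted p below 0.05, against 0.792% of all genes. The median contrast was 0.19. The median difference from vehicle was 0.11 at 10 pM and -0.20 at 100 pM, and the latter was -0.08 without the second 100 pM array. Between 10 and 100 pM, 6 members were called lower at 100 pM, where 166 of all 19938 genes were called in either direction.

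Egln3 encodes a prolyl hydroxylase that marks hypoxia-inducible factors for destruction and is itself induced by them. It was at 7.62, 7.55 and 7.70 with vehicle, 8.01, 8.00 and 7.92 at 10 pM and 7.16, 6.92 and 7.37 at 100 pM. The groups did not overlap. The contrast was 0.59 ± 0.08, a 1.51-fold higher level at 10 pM than the average of the other groups (adjusted p = 0.166), and the fall from 10 to 100 pM was called (adjusted p = 0.00970). Of its relatives, Egln1 had a contrast of 0.26 ± 0.07 and Egln2 one of 0.02 ± 0.04.
Higd1a, a small mitochondrial protein induced by hypoxia, was at 7.98, 7.83 and 7.98 with vehicle, 8.28, 8.32 and 8.26 at 10 pM and 7.81, 7.56 and 7.92 at 100 pM. The 10 pM arrays stood apart, the others overlapped, and the contrast was 0.44 ± 0.07 (adjusted p = 0.221). A second probeset of the gene had a contrast of 0.24 ± 0.13 with 10 pM close to vehicle, at 7.29 against 7.28, so the difference from vehicle rests on 1 probeset. P4ha2, a subunit of the collagen prolyl hydroxylase, was at 8.96, 9.00 and 9.01, then 9.22, 9.25 and 9.13, then 8.86, 8.50 and 8.82 in the order of dose, and its contrast was 0.34 ± 0.07 (adjusted p = 0.404).

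Bnip3, a mediator of mitophagy, had group means of 10.12, 10.44 and 9.75 and a contrast of 0.51 ± 0.12. These values are from 1 of its 2 probesets, the one with the higher mean. Ndufa4l2, which lowers respiratory chain activity in hypoxia, had a contrast of 0.51 ± 0.14, nearly all of it from the 100 pM side, with means of 8.11, 8.24 and 7.34. Vegfa, the angiogenic growth factor, had means of 9.63, 9.68 and 9.43 and a contrast of 0.15 ± 0.05 (adjusted p = 0.794). The 4 members without an inverted U were Adm, Car9 and Pfkfb4, whose 100 pM means were at or above those of the other groups, and the factor gene Epas1, at 5.76, 5.73 and 5.71. Hif1a had an inverted U with a small contrast of 0.05 ± 0.03, at 10.09, 10.14 and 10.09.

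Hypoxia-inducible factors bind a core that contains ACGTG, and promoter stretches of 5 members of the hypoxia, glycolysis and glucose transport lists are shown with that core in capitals on either strand, all from GRCm38.p6. The core overlaps the E-box CACGTG, which other factors bind. They are Pgk1 at chrX:106186925-106186998 (plus strand), Ldha at chr7:46845634-46845799 (plus), Egln3 at chr12:54204079-54204123 (minus), Slc2a1 at chr4:119108684-119108738 (plus) and P4ha2 at chr11:54100821-54100875 (plus).
Pgk1 promoter: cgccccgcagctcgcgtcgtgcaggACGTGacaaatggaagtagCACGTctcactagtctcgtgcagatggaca
Ldha promoter: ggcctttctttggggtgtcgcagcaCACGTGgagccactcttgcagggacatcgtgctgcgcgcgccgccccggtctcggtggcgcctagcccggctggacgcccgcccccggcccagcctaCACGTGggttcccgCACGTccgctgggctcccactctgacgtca
Egln3 promoter: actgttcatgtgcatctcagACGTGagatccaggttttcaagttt
Slc2a1 promoter: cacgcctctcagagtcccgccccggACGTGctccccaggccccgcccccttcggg
P4ha2 promoter: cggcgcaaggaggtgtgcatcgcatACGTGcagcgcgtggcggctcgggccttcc
Within 250 bases before any RefSeq start of a gene, ACGTG was found in 14 of 19 hypoxia-response genes with a promoter sequence (73.7%), in 7 of 13 glycolysis genes (53.8%) and in 18.5% of all genes. The hypoxia-response genes were listed as targets of these factors, so their high share is partly built in and says nothing about the shape. The median contrast was 0.21 in the 14 hypoxia-response genes with the core and 0.14 in the 5 without it. In the glycolysis genes the order was the other way, at 0.14 with and 0.20 without. Over all measured genes, an inverted U at an unadjusted p below 0.05 was seen in 3.46% of 3266 genes with the core and 2.90% of 12348 without it.

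Glycolysis enzymes were on a list of 16 genes, of which 13 were measured by a probeset with 1 gene name. The study itself singled out glycolysis on these arrays, and the list is therefore not independent evidence of a direction. An inverted U was seen in 12, against 32.2% of all genes, and a U in none. In 10 (76.9%) the unadjusted contrast p was below 0.05, against 5.61% of all genes. In 9 all 10 pM arrays were above the other 6, against 1.19% of all genes. None was called in the contrast and 3 passed both sides at an unadjusted p below 0.05, against 0.792% of all genes. The differences were small, with a median contrast of 0.14 and medians of 0.09 at 10 pM and -0.10 at 100 pM relative to vehicle, the latter -0.04 without the second 100 pM array. The exception was Hk1, the hexokinase of most tissues and the first enzyme of the pathway, at group means of 13.03, 13.01 and 13.00. A much dimmer probeset of Hk1, at 8.67, 8.72 and 8.61, did have an inverted U, with a contrast of 0.07 ± 0.05. The exception therefore rests on the choice of probeset.

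Aldoc, an aldolase, was at 7.06, 7.11 and 7.13 with vehicle, 7.23, 7.42 and 7.17 at 10 pM and 6.72, 6.47 and 6.71 at 100 pM. Its groups did not overlap, and it had the largest contrast of the list, 0.41 ± 0.07 (adjusted p = 0.228), with 100 pM called lower than vehicle by 0.47 (adjusted p = 0.0336). Pgk1, which makes the first ATP of the pathway, was at 12.56, 12.56 and 12.52 with vehicle, 12.68, 12.72 and 12.72 at 10 pM and 12.42, 12.26 and 12.43 at 100 pM.
The Pgk1 groups did not overlap either, and the contrast was 0.25 ± 0.04, or 1.19-fold (adjusted p = 0.221). Of its 3 probesets, 2 held identical values and the other gave 0.24 ± 0.04, so signals from near-identical gene copies may be mixed there. Tpi1, triose phosphate isomerase, was at 11.79, 11.87 and 11.87 with vehicle, 12.02, 12.03 and 12.03 at 10 pM and 11.81, 11.60 and 11.81 at 100 pM. Its vehicle and 100 pM arrays overlapped, and the contrast was 0.24 ± 0.05 (adjusted p = 0.339).

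Ldha, which turns pyruvate into lactate, had a contrast of 0.16 ± 0.04, and Pkm, pyruvate kinase, one of 0.14 ± 0.04. Pfkl, the liver-type phosphofructokinase, had a contrast of 0.30 ± 0.07, while the muscle and platelet types Pfkm and Pfkp had 0.07 ± 0.03 and 0.11 ± 0.05. The lowest adjusted p in the list was that of Pgk1.

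**Figure D3:**
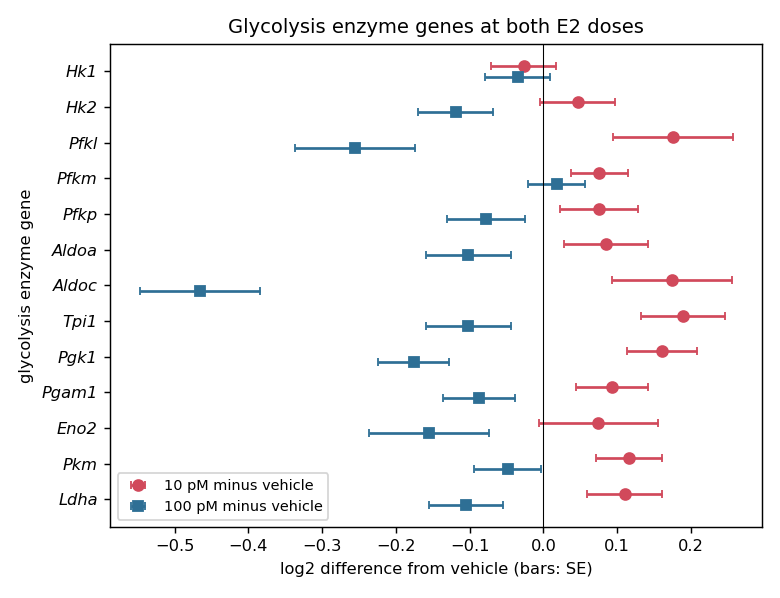
The log2 differences from vehicle of 13 glycolysis enzyme genes (y axis) are plotted on the x axis for 10 pM E2 (red circles) and 100 pM E2 (blue squares), with bars for the SE of the fit. In 12 genes the 10 pM point is to the right of 0 and to the right of the 100 pM point, and Hk1 is the exception.

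Neighbouring steps of glucose handling had the pattern in part. Over all genes, 32.2% had an inverted U and 3.03% an inverted U with an unadjusted p below 0.05. Of 11 glycogen metabolism genes measured, 8 had an inverted U and 3 of them an unadjusted p below 0.05. These were Pgm1, which links glucose phosphates to glycogen, with 0.28 ± 0.06, Pygl, the liver glycogen phosphorylase, with 0.23 ± 0.04, and Gys1, glycogen synthase, with 0.15 ± 0.03. So a gene of glycogen making and a gene of glycogen breakdown had the same shape. Of 11 genes of glucose and lactate transport and pyruvate entry, 8 had an inverted U and 4 of them an unadjusted p below 0.05. Slc2a1, the main glucose transporter of proliferating cells, was at 10.24, 10.24 and 10.26 with vehicle, 10.51, 10.45 and 10.38 at 10 pM and 10.25, 10.09 and 10.22 at 100 pM. All its 10 pM arrays were above the rest, the vehicle and 100 pM arrays overlapped, and the contrast was 0.23 ± 0.04 (adjusted p = 0.30).
Slc2a3 is another glucose transporter, Pdk1 a kinase that holds back the conversion of pyruvate to acetyl-CoA, and Slc16a3 the lactate exporter. Their contrasts were 0.35 ± 0.09, 0.35 ± 0.08 and 0.31 ± 0.08, with larger differences from vehicle at 100 pM than at 10 pM. Pdk4, a kinase of the same step that is induced by fasting, had a contrast of -0.14 ± 0.07.

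The 100 pM side of these lists leaned on 1 array. The mean deviation of the hypoxia-response genes from their own means was -0.31 on the second 100 pM array and -0.08 and -0.07 on the other 100 pM arrays. For the glycolysis enzymes the same values were -0.23, -0.07 and -0.07. The 10 pM arrays were close together, at 0.13, 0.16 and 0.12 for hypoxia-response genes and 0.11, 0.14 and 0.09 for glycolysis enzymes. Without the second 100 pM array, the median difference of the hypoxia-response genes from vehicle at 100 pM was -0.08 in place of -0.20, and that of the glycolysis enzymes -0.04 in place of -0.10. The median contrasts were then 0.13 and 0.11. An unadjusted p below 0.05 was then seen in 12 hypoxia-response and 10 glycolysis genes, against 4.90% of all genes. The both-sides test was then passed by 8 and 7 members of the lists in place of 3 and 3. Over all 19938 genes it was passed by 125 in place of 158. Over all single arrays left out, 10 to 16 of the hypoxia-response genes and 7 to 11 of the glycolysis enzymes had a p below 0.05 with an inverted U. The same count over all genes was 426 to 696.

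**Figure D4:**
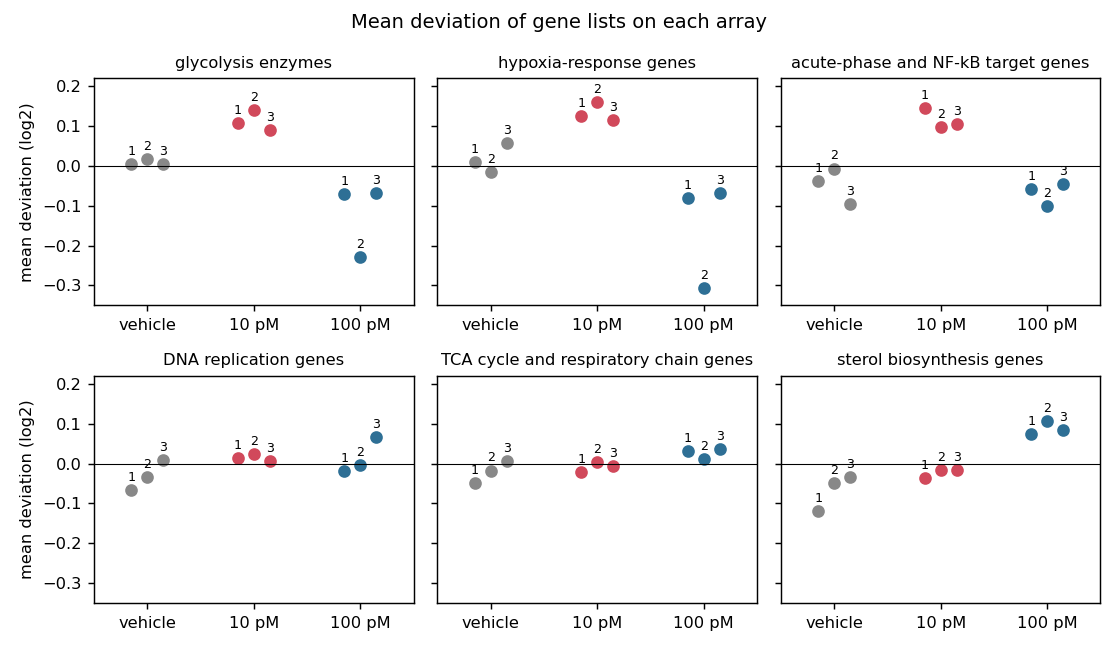
The mean deviation of 6 gene lists from each gene's mean over the 9 arrays (y axis, log2) is plotted for each array by group (x axis), with the replicate number above each point. In the 3 upper panels all 10 pM arrays are above the others, and the second 100 pM array is the lowest for glycolysis enzymes and hypoxia-response genes. In the lower panels the 10 pM arrays lie among the others or between the groups.

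Other programs of the cell gave different pictures. The counts here and in the next paragraph stand beside shares over all genes of 32.2% with an inverted U and 5.61% with an unadjusted p below 0.05. The 16 measured genes of the tricarboxylic acid cycle and respiratory chain, the mitochondrial counterpart of glycolysis, had 3 inverted U genes, none with an unadjusted p below 0.05, and a median contrast of -0.00. Sterol biosynthesis, also singled out by the study and so not independent evidence, had 2 inverted U and 2 U genes of 15, and 11 in between, with medians of 0.06 at 10 pM and 0.15 at 100 pM relative to vehicle. Mitosis genes were above vehicle by similar amounts at both doses, with medians of 0.13 and 0.12, and 1 of 12, Aurka, had an inverted U with a p below 0.05. DNA replication genes had 4 inverted U genes with a p below 0.05 of 19, Mcm7, Mcm3, Rfc3 and Rpa2, each with a contrast of at most 0.11, and 1 U gene, Cdt1, the licensing factor, with -0.11 ± 0.05. The list's median contrast was 0.02.

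Genes of fatty acid oxidation were split, with 8 inverted U and 5 U genes of 17, of which 3 and 1 had an unadjusted p below 0.05, and a median contrast of 0.01. Phyh, which starts the breakdown of phytanic acid in peroxisomes, was at 7.62, 7.62 and 7.68 with vehicle, 7.81, 7.89 and 7.75 at 10 pM and 7.45, 7.30 and 7.43 at 100 pM. Its groups did not overlap, the contrast was 0.30 ± 0.05 (adjusted p = 0.172), and its fall from 10 to 100 pM was called (adjusted p = 0.00970). Interferon-response genes had 5 inverted U genes of 11 and 2 genes with a p below 0.05, Usp18 with an inverted U and Oasl2 with a 10 pM mean between the others. Extracellular matrix genes, likewise singled out by the study and not independent evidence, had 6 inverted U genes of 18. In 7 of the 18 (38.9%) the unadjusted contrast p was below 0.05, and of these Dcn and Lum had an inverted U, while Eln, Fbln1, Postn, Mgp and Col3a1 had a 10 pM mean between the others and were called between vehicle and 100 pM. The integrated stress response had 7 of 12, with Trib3 alone at p below 0.05, and endoplasmic reticulum chaperones had 4 of 10 and none below 0.05.

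In most of the listed estrogen-responsive genes the order of the group means followed the dose. The study reported Pgr, Esr1, Angpt2 and Dkk2, all on the list, as induced by E2 at low doses, so the list is not independent evidence. Of 15 measured, 13 had a 10 pM mean between the other means, against 7690 of all 19938 genes. Stc2 had an inverted U and Cxcl12 a U. An unadjusted contrast p below 0.05 was seen in 4 (26.7%), against 5.61% of all genes. These were Stc2 and 3 genes with a 10 pM mean between the others. Pgr, the progesterone receptor gene and a standard target of the estrogen receptor, was at 6.57, 6.84 and 6.77 with vehicle, 7.04, 7.27 and 7.26 at 10 pM and 7.55, 7.84 and 7.90 at 100 pM. The groups followed the dose without overlap, and the contrast was -0.06 ± 0.09. Esr1, estrogen receptor alpha, had group means of 7.47, 7.57 and 7.68 and a contrast of -0.00 ± 0.04. A full palindromic estrogen response element of GGTCA, NNN and TGACC was in the promoter window of 0.0666% of genes and of no listed gene.

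U-shaped genes were fewer and their differences smaller at the extremes. At an unadjusted p below 0.01, no U gene had a contrast below -0.5 and 6 inverted U genes were above 0.5. Genes of low signal were more common among them, as 35.3% of the 51 U genes at an unadjusted p below 0.01 were in the dimmest 30% of all genes, against 17.8% of the 169 inverted U genes. Prkg2, a cyclic GMP-dependent protein kinase, was at 6.79, 6.84 and 6.84 with vehicle, 6.72, 6.64 and 6.69 at 10 pM and 6.94, 6.99 and 7.03 at 100 pM. The groups did not overlap and the contrast was -0.23 ± 0.03 (adjusted p = 0.172), while a dimmer probeset of the gene gave -0.01 ± 0.10.
Kcnj14, an inwardly rectifying potassium channel, was at 6.58, 6.74 and 6.46 with vehicle, 6.31, 6.20 and 6.20 at 10 pM and 6.75, 6.54 and 6.88 at 100 pM. Its 10 pM arrays were below the rest, the other groups overlapped, and the contrast was -0.42 ± 0.08, a 1.34-fold lower level than the average of the other groups (adjusted p = 0.30).

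Rdh16f2, a member of a family of retinol dehydrogenases, was at 5.48, 5.43 and 5.34, then 5.15, 5.01 and 5.23, then 5.30, 5.41 and 5.44 in the order of dose, with a contrast of -0.27 ± 0.06 (adjusted p = 0.378). The 10 pM arrays were the lowest here too. Col8a1, which encodes a chain of the short network-forming collagen VIII, had the tightest values, at 9.51, 9.52 and 9.53, then 9.44, 9.44 and 9.44, then 9.75, 9.74 and 9.73. Its groups did not overlap, its contrast was -0.19 ± 0.03 (adjusted p = 0.166), and 100 pM was called above vehicle by 0.22 (adjusted p = 0.0116). Eci3, an isomerase of fatty acid oxidation, went below vehicle at both doses, with group means of 4.08, 3.69 and 3.84. In Rgs5, a regulator of G protein signaling found in pericytes, Masp1, a protease of the complement lectin pathway, Fbln5, an elastic fibre protein, and Dcaf12l1, the 10 pM mean was below vehicle by 0.04 to 0.07 and the contrast came from called differences at 100 pM.

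**Figure D5:**
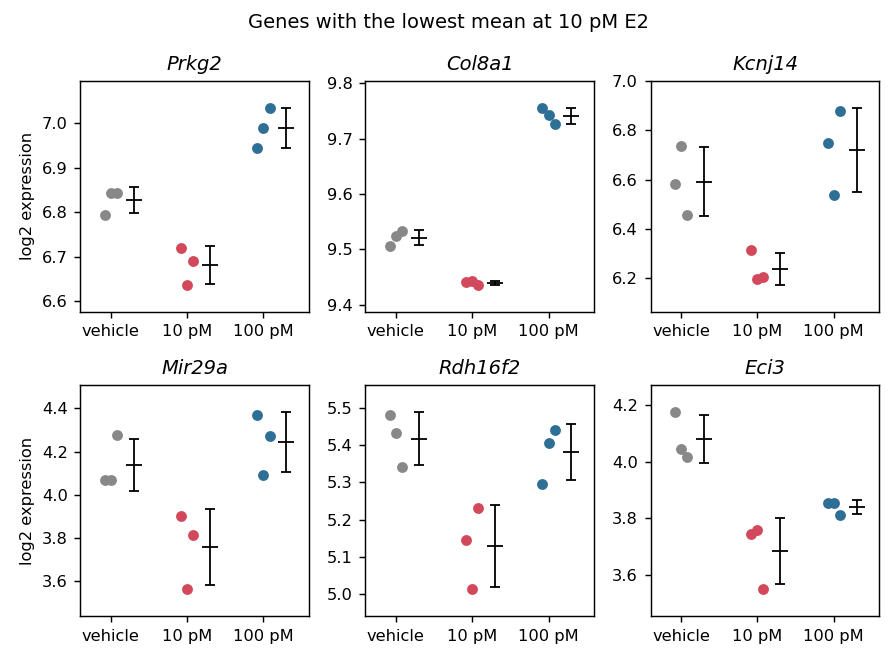
Log2 expression (y axis, scales differ between panels) of 6 U genes is plotted for each array, with the groups on the x axis, dots for single arrays and black bars for the mean ± SD of 3 arrays. All 10 pM arrays are below the other 6 in each panel, and in Eci3 the 100 pM arrays are also below vehicle.

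The U gene with the largest contrast among the named ones was the microRNA precursor gene Mir29a. MicroRNAs of the miR-29 family repress messages for collagens and other matrix proteins. Their mature 3' forms are printed from RefSeq (GRCm38.p6) with the seed, bases 2 to 8, in capitals, since the 3 share it and differ only behind it. They are encoded at chr6:31062673-31062694 (minus strand), chr1:195037091-195037113 (plus) and chr1:195037600-195037621 (plus), and miR-29b-3p has another gene copy, Mir29b-1, next to Mir29a on chromosome 6.
miR-29a-3p: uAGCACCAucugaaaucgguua
miR-29b-3p: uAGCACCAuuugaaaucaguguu
miR-29c-3p: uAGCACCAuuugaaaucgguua
Mir29a was at 4.07, 4.07 and 4.28 with vehicle, 3.90, 3.56 and 3.81 at 10 pM and 4.37, 4.09 and 4.27 at 100 pM. The 10 pM arrays were below the rest and the other groups overlapped, with a contrast of -0.43 ± 0.09 (adjusted p = 0.339). The signal was low, and the array does not separate the precursor from the mature form. Mir29b-1 had a contrast of -0.13 ± 0.07 at a mean level of 2.73.

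The both-sides test was passed at an unadjusted p below 0.01 by 29 genes, 22 with an inverted U and 7 with a U. Of the 22, Saa3, Nfkbia, Serpina3n, Ccl2 and Cxcl16 belong to the acute-phase list, and Higd1a, Egln3, Slc2a1, Pgk1, Tpi1 and Phyh to the lists of hypoxia, glucose and fatty acid genes. The rest belong to no list. Hand2, a transcription factor of mesenchyme in limb and heart, was at 6.47, 6.59 and 6.51 with vehicle, 6.80, 6.81 and 6.70 at 10 pM and 6.63, 6.63 and 6.63 at 100 pM. It stayed above vehicle at 100 pM, with a contrast of 0.20 ± 0.04 (adjusted p = 0.30). Cdon, a co-receptor of hedgehog signaling, was at 5.75, 5.72 and 5.75, then 5.88, 5.87 and 5.91, then 5.68, 5.55 and 5.67 in the order of dose, without overlap, and its contrast was 0.20 ± 0.04 (adjusted p = 0.266).
Tmem45a had a contrast of 0.31 ± 0.06, Cryz, a quinone reductase, 0.22 ± 0.05, Grhpr, which clears glyoxylate, 0.18 ± 0.04, and Fabp5, a fatty acid carrier, 0.18 ± 0.04. Wdr19, a part of the transport machinery of cilia, had 0.17 ± 0.04, and Mterf2, Prokr2, H2bc1 and Olfr830 had contrasts of 0.15 to 0.22. The U genes were Rdh16f2, Kcnj14, Mir29a and Prkg2, described above, with Tmem130 at -0.29 ± 0.07, Tmem107, a protein of the ciliary transition zone, at -0.18 ± 0.04, and Hnf4aos at -0.15 ± 0.03. None of these 29 was called in the both-sides test after adjustment.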

How the data were processed

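Total RNA of 9 samples was measured on Affymetrix arrays. The deposited table holds log2 values per probeset, which the authors made with GCOS and Gene Expression Console (versions and build not given in the sources used here). That the scale is log2 is read from the range of the values, and centring was not checked against scanner files. Of 35556 probesets, 21789 had 1 gene symbol, 1621 several and 12146 none here, and 21698 matched a RefSeq gene. The probeset with the highest mean was used for each of 19938 genes, of which 999 had more than 1. No filter was applied.

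Group means were fitted with limma 3.58.1 (lmFit, eBayes) in R 4.3.3, with 6 residual degrees of freedom and two-sided tests. A gene was called where its p, adjusted over all genes by Benjamini-Hochberg, was below 0.05. The both-sides p is the larger of the p-values against vehicle and against 100 pM, where both differences have the same direction. Errors are SE of the fit, and the number of arrays limits precision. The code was tested on simulated data. Figures were drawn with matplotlib 3.10.9, and sequences are RefSeq's.

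The members and the 15 lists (254 genes, 230 measured) and cell type markers were chosen with earlier results of these data known. The shares within any list are therefore not independent evidence. Named genes are the called genes of each shape filled up to 10 by the smallest p, all glycolysis enzymes, up to 4 genes of each other list by smallest p, and Pgr, Esr1 and Vegfa. Other list members, the 29 both-sides genes, and genes set beside them (Saa, Egln and Mir29 families) were named after their values were seen. The alternatives tried were a block for the replicate number, array weights, trend and robust in eBayes, the study's one-way analysis of variance, an adjusted p below 0.10, the shape asked of every array, all probesets, probeset means, a filter on the dimmest 30% of genes, quantile normalization, median centring, and each array left out in turn. A fit without vehicle array 2 and 100 pM array 2 was added after seeing the data.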

Additional observations from a re-analysis of the deposited data

How the results depend on the processing

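The count of 1 called inverted U gene and 0 called U genes depended on the test. It was 0 inverted U genes with all probesets tested and with array weights, where Saa3 had a contrast of 1.27 and an adjusted p of 0.0596. With trend and robust in eBayes it was 5 and 1, namely Saa3, Lrat, Serping1, Pdgfra and Igfbp2, and Col8a1. Analysis of variance asks for any difference among the groups, so its counts are of another kind. It gave 141 and 74 at an unadjusted p below 0.01, where 199.38 genes of any shape are expected if no gene differed. By group means alone, 32.2% and 29.2% of all genes have these shapes. After adjustment it gave 0 and 1 (Col8a1). Saa3 was the gene called with the replicate number as a block too, with an adjusted p of 0.00599, and the both-sides test then called 1 gene, Saa3. Deviations of same-numbered arrays correlated from -0.112 to 0.200, and those of differently numbered arrays from -0.189 to 0.168. With 3 arrays per group this cannot settle whether the numbers pair the samples, and the block was not used.

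With each array left out in turn, 0 to 1 inverted U genes were called, the 1 being Serping1 without the third 100 pM array. The contrast of Saa3 was then 1.13 to 1.39, with adjusted p-values from 0.0544 to 0.258, and the median of the acute-phase list 0.073 to 0.125. Without the second vehicle and 100 pM arrays together, 0 were called, Saa3 had 1.25 (adjusted p = 0.175) and that median was 0.13. It was 0.12 without the dimmest 30% of genes. Median centring and quantile normalization left Saa3 called. The sign of uncalled contrasts near 0 turned for Hk1 (0.022 after quantile normalization, 0.033 with probeset means, -0.030 to 0.012 with arrays left out), Esr1 (-0.027 to 0.017 with arrays left out) and Pgr (-0.111 to 0.017 likewise). Signals near background limit Mir29a, Eci3 and the Saa genes other than Saa3, and Rdh16f2 was within the dimmest 30% of genes too. Saa3 was itself low with vehicle and at 100 pM, with means of 5.14 and 5.15. Its place above the dimmest 30% rests on its 10 pM arrays.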
